A study of Mus musculus with 3 samples.

Results

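Upk3b, Upk1b, Msln, Lrrn4, Muc16, Gpm6a and Nkain4 encode surface and membrane proteins found on the mesothelium, the epithelial sheet that covers the heart and other organs. These 7 genes were picked by their symbols from a table of 18245 mouse genes, and each had 1 row. Their RNA was measured by sequencing in 3 kinds of cultured cell from C57BL/6 mice, with 3 libraries of each kind. The labels give ventricle epicardium as the tissue of all of them. Cardiosphere-derived cells (CDC) were mesenchymal cells grown from epicardium explants of mice aged 6 weeks. CDC-EpiC was an epithelial clone that arose in CDC cultures held for 2 weeks in 10 µM SB-431542, a blocker of TGF-beta receptor signalling, and that was lifted out by means of a cylinder. Primary epicardial cells (pEpiC) were freed, per the methods, by digesting the heart of mice aged 6 to 8 weeks and carried no such treatment, and neither did CDC. The libraries of CDC-EpiC all came from 1 clone, so that the drug, the picking and the clone cannot be told apart. GEO holds 1 sample for each kind, and neither its labels nor the methods say whether the 3 libraries of a kind were separate animals or cultures. P-values then measure only the spread between these libraries, which may be technical.

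Uroplakins are best known from the bladder, where a tetraspanin uroplakin and a uroplakin with a single transmembrane segment pair up and leave the endoplasmic reticulum together to form plaques on the surface of umbrella cells. Upk1b and Upk3b are such a pair, and both are also made by mesothelial cells. Mesothelin (Msln) is a lipid-anchored protein released from its precursor by furin, and it binds Muc16, the very large membrane mucin that carries the CA125 antigen. Lrrn4 is a single-pass protein with leucine-rich repeats, Gpm6a is a tetraspan protein of the proteolipid family, and Nkain4 belongs to a family of membrane proteins that bind the beta 1 subunit of the sodium and potassium pump.

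On the GRCm38 assembly, which is also called mm10, all 7 genes were protein-coding in the GENCODE M21 annotation. Upk3b (NCBI gene 100647) lay on the plus strand at chr5:136038496-136046487 and Upk1b (22268) on the minus strand at chr16:38773184-38800328. Msln (56047) lay at chr17:25748613-25754378 and Lrrn4 (320974) at chr2:132868305-132880891, both on the minus strand. Muc16 (73732) took up chr9:18495455-18674530 and Nkain4 (58237) chr2:180934772-180954699, both on the minus strand, while Gpm6a (234267) lay on the plus strand at chr8:54954843-55060871. No other annotated gene overlapped Upk3b, Upk1b, Msln or Lrrn4. Nkain4 shared 236 bases with an antisense gene, Gm14341, Muc16 shared 306 bases with Gm25295 on the other strand, and 5 unreviewed transcript models lay within Gpm6a. None of these 7 neighbours had a row in the table, and whether counting used strand is not given in the sources used here.

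RefSeq start-site windows (GRCm38.p6) were at hand for 4 of the 7 genes, Upk3b, Lrrn4, Muc16 and Gpm6a, with 2 windows for Gpm6a. The 250 bases before the start are printed below for the 3 windows that held the letters GGAATG or their reverse complement CATTCC, the core that TEAD factors recognise. These letters are in capitals, and each sequence runs 5′ to 3′ on the strand of the gene. The windows are chr5:136038246-136038495 on the plus strand for Upk3b, chr2:132880863-132881112 on the minus strand for Lrrn4 and chr8:54779184-54779433 on the plus strand for the upstream start of Gpm6a.
Upk3b: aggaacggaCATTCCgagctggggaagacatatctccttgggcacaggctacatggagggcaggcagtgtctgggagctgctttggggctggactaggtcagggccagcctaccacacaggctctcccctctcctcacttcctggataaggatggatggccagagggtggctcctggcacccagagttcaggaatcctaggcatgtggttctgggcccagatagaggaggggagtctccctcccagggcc
Lrrn4: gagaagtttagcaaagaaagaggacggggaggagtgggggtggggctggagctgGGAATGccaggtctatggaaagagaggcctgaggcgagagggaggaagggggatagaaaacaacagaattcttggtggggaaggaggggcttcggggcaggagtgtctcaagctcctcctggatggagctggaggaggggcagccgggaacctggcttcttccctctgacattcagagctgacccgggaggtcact
Gpm6a: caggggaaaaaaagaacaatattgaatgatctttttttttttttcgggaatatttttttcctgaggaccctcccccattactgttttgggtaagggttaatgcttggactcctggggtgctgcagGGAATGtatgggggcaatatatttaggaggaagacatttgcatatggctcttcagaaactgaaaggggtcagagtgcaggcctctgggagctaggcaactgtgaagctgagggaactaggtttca

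The match began 241 bases before the start in Upk3b, 196 bases before it in Lrrn4 and 125 bases before it in the upstream window of Gpm6a. The window of Muc16 and the other window of Gpm6a held no match. At least 1 was found in 12.6% of 32851 windows of the same length, and in 11.4% of the 17887 windows of genes in the table. Of 5 other motifs searched on both strands, the GC box GGGCGG, the E box CACCTG, the GATA motif AGATAA and the EGR or WT1 motif GCGTGGG were found in none of the 5 windows. They occurred in 32.7%, 17.2%, 9.99% and 4.3% of all windows, and in 49.3%, 16.9%, 7.2% and 6.33% of those of genes in the table. The TATA box TATAAA, present in 12.4% of all windows and 8.39% of those of genes in the table, was found once, 211 bases before the other start of Gpm6a. The bases just after the start were found in a GENCODE transcript for Upk3b and Lrrn4, but not for Muc16 or either start of Gpm6a. The upstream start of Gpm6a lies far before the span of the gene given above. A match is a run of letters and was not tested as a binding site, and gene counts do not show which start these cells used.

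Depth was close to equal, with 22008833 to 22756045 expected counts per library. Counts are given as they were deposited, and CPM are counts per 1000000 counts after TMM normalization, which evens out differences in RNA composition. Markers of the epicardium (Wt1, Tbx18, Tcf21, Bnc1 and Aldh1a2) were above 3 counts in at least 1 library of every kind, and their summed level was 159 to 166 CPM in CDC, 390 to 426 CPM in CDC-EpiC and 248 to 259 CPM in pEpiC. The sum hides genes that ran in different orders. Wt1 and Bnc1 were highest in CDC-EpiC, Tcf21 and Aldh1a2 in pEpiC, and Tbx18 in CDC. Of the 6 urothelial markers in the list 4 had a row, and together they reached at most 1.4 CPM in any library, with Krt20 and Trp63 at 3 counts or fewer in all of them. Fibroblast markers summed to 6290 to 8270 CPM in CDC, 3640 to 4380 CPM in CDC-EpiC and 22000 to 24000 CPM in pEpiC. Dcn and Pdgfra did not follow this sum, as both were higher in CDC-EpiC than in CDC, nor did Thy1, which was highest in CDC. The 10 macrophage markers summed to 827, 326 and 298 CPM in pEpiC libraries 1, 2 and 3, against 30.1 to 74.3 CPM elsewhere, so that pEpiC library 1 stood apart. Likewise CDC libraries 1 and 2 held 52.1 and 83 CPM of red blood cell genes, and the other 7 libraries at most 0.228 CPM. These 2 also held some liver, heart muscle and lung transcripts that CDC library 3 all but lacked. In CDC libraries 1, 2 and 3 Alb had 660, 599 and 1 counts and Fga 128, 171 and 0. Myh6 had 190.67, 189.59 and 0 counts, and Sftpc 26, 58 and 2. Other genes of the same lists were not lacking in CDC library 3. Trf had 5529, 5664 and 6087 counts and Ahsg 642, 712 and 497, while Tnnt2 had 220, 238 and 172 and Ager 25, 36 and 14. The part of such cells in the differences below was not tested. Comparisons with CDC were also fitted without CDC library 1, without CDC library 2, and with CDC library 3 alone for CDC. Those with pEpiC were also fitted without pEpiC library 1. The fit on CDC library 3 alone was chosen after seeing the data and assumes that this lone library varies like those of the other kind. In cultures measured in bulk, fewer cells of a type and less RNA per cell cannot be told apart.

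CDC-EpiC held the highest level of 6 of the 7 genes, and Muc16 alone was highest in pEpiC. Upk3b, Upk1b, Msln, Gpm6a and Nkain4 ran in the order CDC-EpiC, CDC, pEpiC. Lrrn4 ran in the order CDC-EpiC, pEpiC, CDC, and Muc16 in the order pEpiC, CDC-EpiC, CDC. Each of these steps was free of overlap between libraries.

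**Figure D1:**
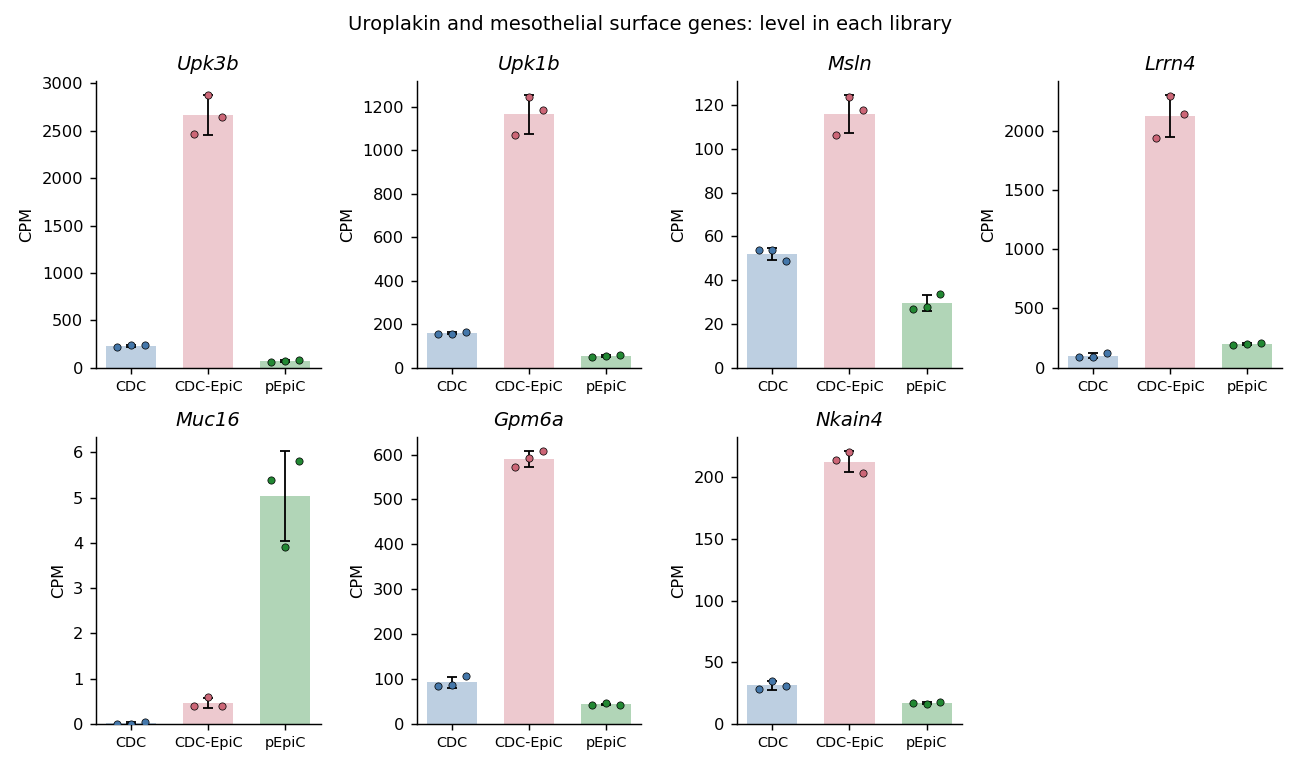
Level of each gene in CPM (linear axis from 0) by kind of cell. Points are the 3 libraries, bars their mean and error lines 1 SD. CDC-EpiC stands above the other kinds for every gene but Muc16, which was at 3.9 to 5.81 CPM in pEpiC and at most 0.592 CPM elsewhere.

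The uroplakin genes were first compared between CDC-EpiC and CDC, to ask how the epithelial clone differed from the culture it came from. Upk3b had 4767, 5192 and 5140 counts in the CDC libraries and 55583, 63219 and 59525 counts in the CDC-EpiC libraries. Its mean level went from 229.7 ± 8.65 CPM (SD, n = 3) to 2664 ± 209 CPM (SD, n = 3), a ratio of 11.6. All CDC-EpiC libraries lay far above all CDC libraries, and the log2 change was 3.53 (SE 0.10, adjusted p = 1.6e-13 by edgeR's quasi-likelihood test). Upk1b, the tetraspanin partner, had 3398, 3388 and 3627 counts in CDC and 24097, 27309 and 26605 counts in CDC-EpiC. It was higher in every CDC-EpiC library, by a log2 change of 2.87 (SE 0.09, edgeR adjusted p = 6.2e-13), and the ratio of the mean CPM was 7.35.

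Msln, the lipid-anchored glycoprotein, had the smallest rise among those tested. It had 1166, 1185 and 1075 counts in CDC and 2404, 2717 and 2653 counts in CDC-EpiC, with no overlap. The log2 change was 1.15 (SE 0.08, edgeR adjusted p = 6.9e-09), from 52.1 ± 2.78 CPM to 116.1 ± 8.76 CPM (SD, n = 3 each). Muc16, which mesothelin binds, had 0, 0 and 1 counts in CDC and 9, 13 and 9 counts in CDC-EpiC, and was too low to be tested here. A kind with 3 counts or fewer of a gene in every library is taken to lie at the floor, and against a floor of 3 counts per library Muc16 was at least 3.39-fold higher in CDC-EpiC. Such floors cover counting error only, since reads copied by PCR are not independent molecules. Muc16 was kept in 4 alternatives only: DESeq2, no filter, the fit of all 9 libraries, and CDC library 3 alone for CDC. These kept it through a looser filter, the pEpiC counts or the lone CDC library. Their fitted log2 changes of 3.19 to 4.81 rest on CDC at the floor and give no support beyond the bound.

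Lrrn4, the leucine-rich repeat protein, rose most among the 6 genes tested. It had 1995.23, 2035.37 and 2688.3 counts in CDC and 43808.4, 50451.1 and 48249.2 counts in CDC-EpiC, with CDC library 3 the highest of its kind. Its counts, unlike those of the other 6 genes, were not whole, so they are estimates, and what its reads were shared with was not identified. Its log2 change of 4.37 (SE 0.13, edgeR adjusted p = 2.6e-13) ranked 85 among 12976 genes ordered from the largest rise, and stayed at 4.30 to 4.52 when any 1 library was left out. With CDC library 3 alone for CDC it was 4.12.

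Gpm6a and Nkain4, the multispan membrane proteins, rose by close amounts. Gpm6a had 1811, 1921 and 2344 counts in CDC and 12914, 12994 and 13663 counts in CDC-EpiC, a log2 change of 2.67 (SE 0.10, edgeR adjusted p = 3.1e-12). Nkain4 had 609, 774 and 669 counts in CDC and 4831, 4840 and 4571 counts in CDC-EpiC, a log2 change of 2.76 (SE 0.09, edgeR adjusted p = 1.1e-12). Neither gene overlapped between the kinds.

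In this comparison 6 of 6 tested genes of the group were called, all higher in CDC-EpiC, where 68.8% of all 12976 genes were called, 34.2% higher and 34.6% lower. None of the 6 overlapped between the kinds, as was so for 72.1% of all genes. With so many genes past the threshold, the size of the change says more than the call. The median log2 change was 2.81 over the 6 genes and 0.00267 over all genes, of which 95% lay below 1.61. Msln, at 1.15, was below that value and the other 5 were above it. Without CDC library 1, library 2 or both, the 6 changes lay between 1.17 and 4.30 and none lost its call.

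Primary epicardial cells were next set against CDC, both grown without the inhibitor. Per the methods, CDC came from peeled epicardium through explant and cardiosphere stages, the latter with added growth factors. The pEpiC cultures came from digested hearts without these stages and grew in a different medium with less serum. The kind of cell and its isolation and culture therefore cannot be told apart. The uroplakins fell and Lrrn4 and Muc16 rose. Upk3b had 1441, 1539 and 1796 counts in pEpiC, all below the lowest CDC library. Its level was 69.1 ± 8.42 CPM (SD, n = 3), 3.33-fold lower than in CDC, and the log2 change was −1.77 (SE 0.09, edgeR adjusted p = 4.4e-08). Upk1b had 1132, 1179 and 1357 pEpiC counts, a log2 change of −1.62 (SE 0.08, edgeR adjusted p = 3.6e-08). Thus the pair moved the same way, and pEpiC library 3 was the highest of its kind for both.

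Msln had 621, 643 and 768 counts in pEpiC, again below every CDC library, and a log2 change of −0.86 (SE 0.09, edgeR adjusted p = 8.9e-06). Muc16 went the other way, with 125, 90 and 133 counts in pEpiC against 0, 0 and 1 in CDC. It was at least 36.7-fold higher in pEpiC against a floor of 3 counts per library (edgeR adjusted p = 1.9e-07). Mesothelin and the mucin that it binds therefore changed in opposite directions, although Muc16 RNA stayed scarce in pEpiC, at 5.03 ± 1 CPM (SD, n = 3).

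Lrrn4 was higher in pEpiC, at 4380.34, 4672.29 and 4696.8 counts, than in any CDC library. The log2 change was 0.92 (SE 0.10, edgeR adjusted p = 1.3e-05). Without any 1 library it lay between 0.85 and 1.06, and with CDC library 3, where Lrrn4 was highest, alone for CDC it was 0.66. Gpm6a had 990, 1045 and 950 counts in pEpiC and changed by −1.13 on the log2 scale (SE 0.09, edgeR adjusted p = 1.1e-06). Nkain4 had 399, 372 and 408 counts and changed by −0.91 (SE 0.09, edgeR adjusted p = 9e-06).

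Of the 7 genes, all tested here, 2 were called higher and 5 lower in pEpiC, where 78.3% of 13526 genes were called, 39.8% higher and 38.5% lower. None of the 7 overlapped, as was so for 81.4% of all genes. The median log2 change was −0.91 over the group and 0.0196 over all genes, and the middle 90% of all genes spanned −1.85 to 3.12, so that Muc16 alone lay outside it. Calls were kept without pEpiC library 1 and without CDC library 1, library 2 or both, and the changes of the 6 genes other than Muc16 then lay between −1.81 and 0.96. Transcript length moved with this comparison: across 10687 genes the log2 change rose by 0.44 for each doubling of length. Nkain4, with the shortest transcript of the group (936 bases implied by the deposited values), changed by −0.04 (SE 0.08, edgeR adjusted p = 0.70) once a length trend was taken out, and its adjusted p ranged from 2.6e-13 to 0.70 over all alternatives. On the log2(TPM + 1) scale, where all genes shifted by a median of 0.41, Msln changed by −0.36 and Nkain4 by −0.39.

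**Figure D2:**
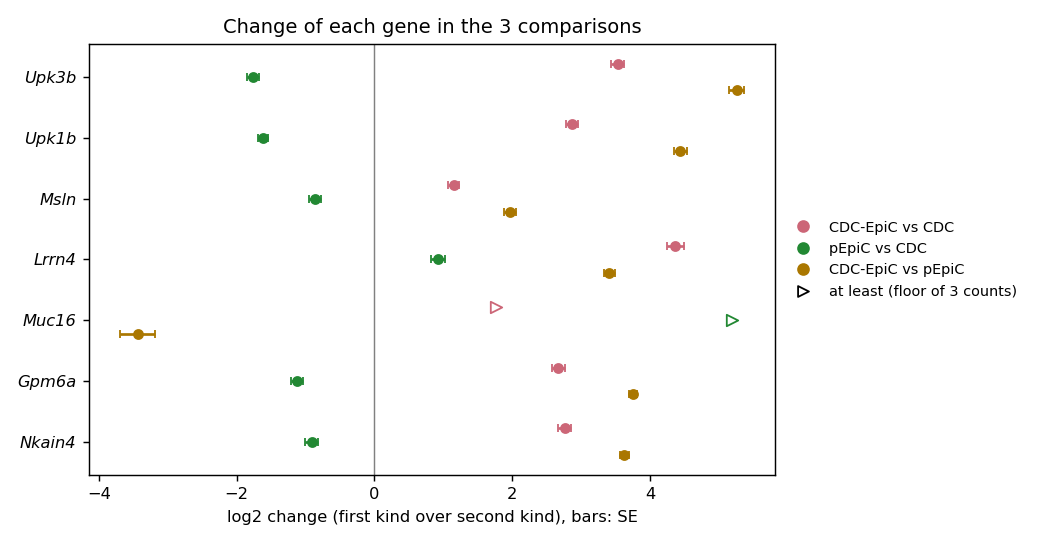
The log2 change of each gene (first kind named over the second) in the 3 comparisons, with bars of 1 SE, derived from the test statistic. Open triangles are lower bounds for Muc16 against the floor of 3 counts per library (at least 3.39-fold and at least 36.7-fold). Green points for pEpiC vs CDC lie left of 0 for Upk3b, Upk1b, Msln, Gpm6a and Nkain4 and right of it for Lrrn4.

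The clone was then compared directly with pEpiC, the epicardial cells it was named after. Upk3b was 38.6-fold higher in CDC-EpiC by mean CPM, a log2 change of 5.26 (SE 0.11, edgeR adjusted p = 1e-10). Upk1b was 22-fold higher (log2 change 4.44, SE 0.09, edgeR adjusted p = 1.1e-10). Gpm6a and Nkain4 followed with log2 changes of 3.76 (SE 0.06) and 3.63 (SE 0.06), and Lrrn4 with 3.41 (SE 0.08), at edgeR adjusted p of 3.5e-11, 4.4e-11 and 1.9e-10. Msln again differed least, by 1.97 (SE 0.09, edgeR adjusted p = 1.5e-08). Muc16 was 10.8-fold lower in CDC-EpiC, with a log2 change of −3.44 (SE 0.25, edgeR adjusted p = 6.3e-07). Thus 6 of the 7 genes were called higher and 1 lower in the clone, where 81.9% of 13547 genes were called, 40.3% higher and 41.5% lower. None of the 7 overlapped, against 83.8% of all genes without overlap. The median was 3.63 over the group and −0.0182 over all genes, of which 95% lay below 1.94. Without pEpiC library 1 the changes ran from −3.39 for Muc16 to 5.18 for Upk3b, and no call was lost. Length moved with this comparison too (−0.435 on the log2 scale per doubling), and with its trend removed Nkain4 changed by 2.84 and Muc16 by −2.26. This comparison and the one before share the pEpiC libraries, as the first and second share those of CDC. It also shares the libraries of the 1 CDC-EpiC clone with the first, so that no 2 of the 3 comparisons are independent.

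**Figure D3:**
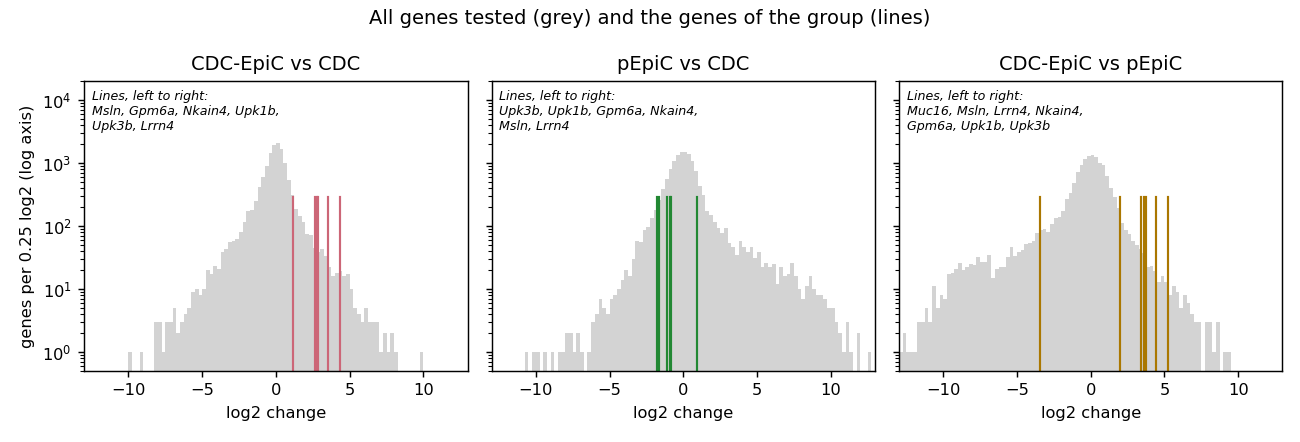
Histograms of the log2 change of all genes tested (grey, bins of 0.25, log vertical axis) in each comparison, with the genes of the group as coloured lines and named from left to right. Muc16 is left out of the pEpiC vs CDC panel because its fitted change rests on a kind at the floor. In the left panel 5 of 6 lines lie beyond 1.61, below which 95% of all genes fall.

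Levels of different genes were compared per transcript length, as TPM, which sums to 1000000 in every library. In CDC, Upk3b stood at 199 ± 11.6 TPM and Upk1b at 158 ± 11.5 TPM, and their libraries did not overlap (n = 3). They were followed by Nkain4 (58.8 ± 6.04 TPM), Gpm6a (54.8 ± 9.37 TPM), Lrrn4 (46.1 ± 9.27 TPM) and Msln (43.4 ± 0.889 TPM), whose libraries overlapped between neighbours. Muc16 was listed at 0 TPM in all 3 CDC libraries.

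In CDC-EpiC, Upk3b reached 2421 ± 164 TPM, rank 62 of the 18245 genes by mean TPM. Upk1b (1219 ± 88.8 TPM, rank 134) and Lrrn4 (1019 ± 78.7 TPM, rank 162) came next, with libraries clear of each other. Nkain4 (421 ± 6.25 TPM), Gpm6a (366.7 ± 17.6 TPM) and Msln (101.5 ± 7.32 TPM) were lower, each clear of the gene before it. In pEpiC the order changed at the top, where Lrrn4 (115.1 ± 5.57 TPM) lay above Upk3b (82.6 ± 10 TPM) and Upk1b (73 ± 7.55 TPM). The uroplakins overlapped with each other there. Nkain4 (44.4 ± 1.43 TPM) was clear of Gpm6a (35.2 ± 2.09 TPM), which overlapped with Msln (33.8 ± 4.11 TPM), and Muc16 was at 0.45 ± 0.0889 TPM.

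**Figure D4:**
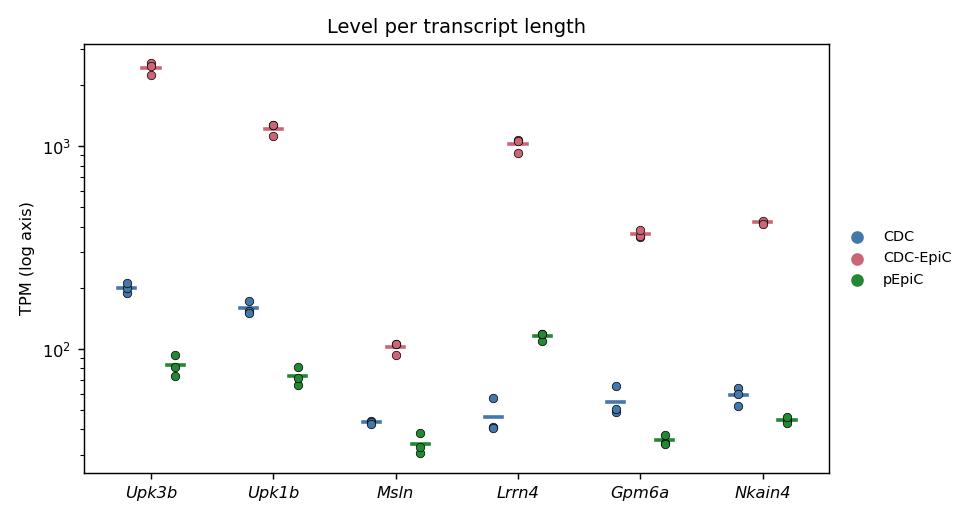
TPM of 6 genes by kind of cell on a log axis, with a point for each of 3 libraries and a line at the mean. Muc16 is left out because it was listed at 0 TPM in CDC. Upk3b was the highest gene of the group in CDC and CDC-EpiC, and Lrrn4 in pEpiC.

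The 7 genes together made up 0.0527% to 0.0606% of all TPM in CDC, 0.515% to 0.579% in CDC-EpiC and 0.0358% to 0.0411% in pEpiC. Within that sum Upk3b took 34.8% to 36.4% in CDC, 43.3% to 44.2% in CDC-EpiC and 20.5% to 22.7% in pEpiC. Lrrn4 took 7.41% to 9.37%, 18% to 18.5% and 28.7% to 30.8% in the same order, and Msln 6.99% to 8.36%, 1.81% to 1.86% and 8.48% to 9.33%. The mix therefore differed between kinds as well as the total. The TPM ratio of Upk3b to its partner Upk1b was 1.26 ± 0.0613 in CDC, 1.99 ± 0.037 in CDC-EpiC and 1.13 ± 0.0219 in pEpiC (SD, n = 3). The ratio of Gpm6a to Nkain4 was 0.936 ± 0.158, 0.871 ± 0.0546 and 0.795 ± 0.0716, and overlapped between all kinds.

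Profiles over the 9 libraries were compared by the root mean square distance of centred log2(CPM + 0.5) values, among 10193 genes with at least 10 CPM in 1 kind. Gpm6a and Nkain4 were among the 3 nearest genes of each other, at a distance of 0.17. No other pair of the group came as close. These CPM were not corrected for length. With the length trend taken out, Gpm6a changed by −1.14 and Nkain4 by −0.04 in pEpiC vs CDC, so that their closeness may depend on the scale. Upk1b was the gene ranked 9 for Upk3b, at 0.356, while Upk3b ranked 21 for Upk1b, behind Gpm6a at rank 14 (0.312). The nearest genes of Upk3b were Casz1 (0.184), Foxo6 (0.206) and Soga3 (0.246). Casz1, a zinc finger transcription factor, had 4.32 CPM in CDC, 52.3 CPM in CDC-EpiC and 1.27 CPM in pEpiC. Upk1b was nearest to Eomes (0.107), a T-box factor with 1.78, 16.5 and 0.246 CPM in the same order, then Hpcal4 (0.146) and Trf (0.152), the gene of transferrin. Lrrn4 was nearest to Prss12 (0.21), Tmem108 (0.28) and Fam189a2 (0.294). Msln was nearest to Fam83h (0.0796), Zyx (0.0888) and Ddr1 (0.0896). Cgn, which encodes the tight junction protein cingulin, was nearest to Gpm6a (0.169), which had Osbpl3 at 0.178, and 9930012K11Rik (0.126) and Map3k9 (0.167) were nearest to Nkain4. These distances are descriptions over libraries that fall into 3 kinds.

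Relatives of the group did not all follow it. Of 22 relatives 20 had a row. Of those tested, 3 of 10 were higher and 4 lower in CDC-EpiC vs CDC, 7 of 11 higher and 1 lower in pEpiC vs CDC, and 3 of 12 higher and 7 lower in CDC-EpiC vs pEpiC, beside 34.2% and 34.6%, 39.8% and 38.5%, and 40.3% and 41.5% of all genes. Upk2 and Upk3a, the bladder uroplakins, had no row, and Upk1a was at 12 to 23 counts per library with no call in the main fit of any comparison. Upk1a was called in 3 of 19 alternatives in CDC-EpiC vs CDC and in 2 of 19 in pEpiC vs CDC. The median log2 changes of the relatives tested were 0.09, 2.96 and −1.55. Without the libraries that stood apart, the counts were the same but for 3 lower instead of 4 in CDC-EpiC vs CDC without CDC library 2 or both, and 1 higher instead of 3 in CDC-EpiC vs pEpiC without pEpiC library 1.

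Gpm6b, the proteolipid relative of Gpm6a, had 10.8 ± 0.961 CPM in CDC, 1.31 ± 0.348 CPM in CDC-EpiC and 86.3 ± 8.19 CPM in pEpiC (SD, n = 3). It fell where Gpm6a rose, with a log2 change of −3.05 (SE 0.18, edgeR adjusted p = 7.5e-10) in CDC-EpiC vs CDC, and rose by 2.96 (SE 0.09, edgeR adjusted p = 2.5e-09) in pEpiC vs CDC. Lrrn4cl, the LRRN4 C-terminal like gene, had 9.79 ± 1.17, 16.8 ± 1.28 and 82.2 ± 7.51 CPM in the same order. It rose in both comparisons with CDC, by 0.77 (SE 0.11, edgeR adjusted p = 1.4e-05) and 3.03 (SE 0.10, edgeR adjusted p = 3e-09), so that CDC-EpiC was 2.31 lower than pEpiC on the log2 scale, the reverse of Lrrn4.

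Nkain1 varied far less than Nkain4, at 64.6 ± 2.88, 68.8 ± 3.48 and 46.8 ± 1.64 CPM, with a log2 change of 0.08 (SE 0.07, edgeR adjusted p = 0.35) between CDC-EpiC and CDC. It changed in the direction of Nkain4 in pEpiC vs CDC (−0.50, edgeR adjusted p = 3.2e-05) and CDC-EpiC vs pEpiC (0.54, edgeR adjusted p = 5.3e-06). Both calls were lost in the test against a 1.5-fold change, and that in pEpiC vs CDC also on the log2(TPM + 1) scale. Nkain3 rose by 1.16 (SE 0.13, edgeR adjusted p = 1.4e-06) in CDC-EpiC vs CDC and by 0.82 (SE 0.12, edgeR adjusted p = 0.00015) in pEpiC vs CDC, from 4.79 ± 0.305 CPM, although the call in pEpiC vs CDC was lost with a length offset (edgeR adjusted p = 0.052). The difference between CDC-EpiC and pEpiC, 0.30 (SE 0.12, edgeR adjusted p = 0.046), overlapped between libraries, turned to −0.13 on the log2(TPM + 1) scale and lost its call in 12 of 18 alternatives, leaving out pEpiC library 1 among them. Atp1b1, the pump subunit that this family binds, rose by 1.71 (SE 0.10, edgeR adjusted p = 5.2e-10) in CDC-EpiC vs CDC, from 251.9 ± 31.6 to 826.7 ± 48.1 CPM. In pEpiC vs CDC it changed by −0.52 (SE 0.08, edgeR adjusted p = 0.00022), a call that was lost with log2(TPM + 1). Furin, the protease that cleaves the mesothelin precursor, had 110.6 ± 5.92 CPM in CDC, 93.9 ± 11.3 CPM in CDC-EpiC and 148.1 ± 6.42 CPM in pEpiC. Its change of −0.25 (SE 0.09, edgeR adjusted p = 0.024) in CDC-EpiC vs CDC lost its call in 8 of 19 alternatives, among them leaving out CDC library 1 or CDC-EpiC library 1, or using CDC library 3 alone for CDC.

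**Figure D5:**
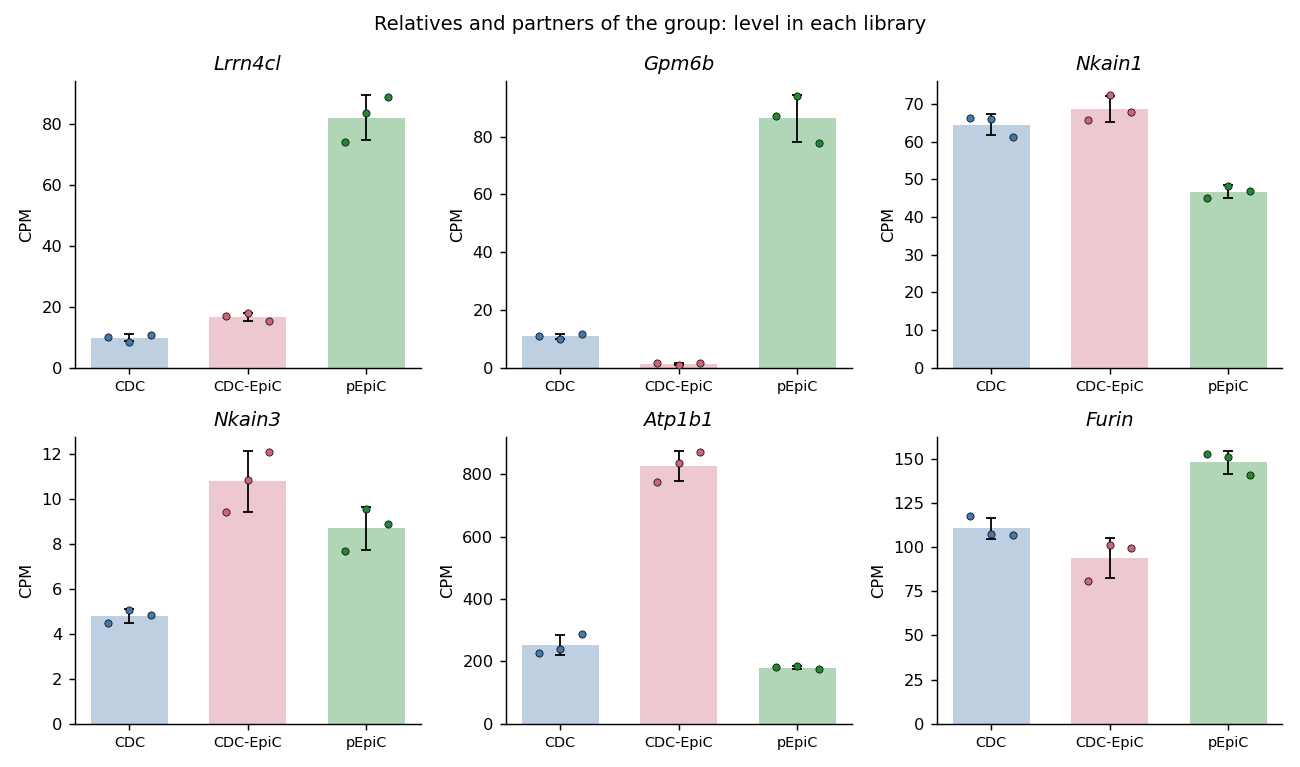
CPM (linear axis from 0) of 6 relatives and partners with at least 10 CPM in 1 kind. Points are the 3 libraries, bars their mean and error lines 1 SD. Gpm6b and Lrrn4cl stand highest in pEpiC, at 86.3 and 82.2 CPM, and Atp1b1 in CDC-EpiC, at 826.7 CPM.

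Other genes known from mesothelium or epicardium, a list of 23, were counted in the same way. In CDC-EpiC vs CDC 14 of 18 tested were higher and 3 lower (median log2 change 2.48), in pEpiC vs CDC 10 of 21 were higher and 10 lower (0.59), and in CDC-EpiC vs pEpiC 15 of 21 were higher and 6 lower (1.12). Over all genes the shares higher and lower were 34.2% and 34.6%, 39.8% and 38.5%, and 40.3% and 41.5%, and the medians 0.00267, 0.0196 and −0.0182, so that the shares of the list in pEpiC vs CDC were near those of all genes. Leaving out the libraries that stood apart moved the higher count only in CDC-EpiC vs pEpiC (14 without pEpiC library 1) and the lower count only in CDC-EpiC vs CDC, to 2 without CDC library 1 and 1 with CDC library 3 alone. Among its genes with at least 10 CPM in the higher kind, the largest rises in CDC-EpiC vs CDC were those of Prg4, the lubricant proteoglycan 4 (4.83, SE 0.14), and Podxl, the sialomucin podocalyxin (4.51, SE 0.12), at edgeR adjusted p of 2.5e-13 and 1.5e-13. Tbx18, an epicardial T-box factor, fell by 0.72 (SE 0.09, edgeR adjusted p = 2.4e-06) and Krt19, a keratin of simple epithelia, by 0.48 (SE 0.13, edgeR adjusted p = 0.0033). With CDC library 3 alone for CDC, Krt19 was at −0.18 and not past the threshold (edgeR adjusted p = 0.29). In pEpiC vs CDC Pdpn, the sialomucin podoplanin, rose by 9.90 (edgeR adjusted p = 3.4e-11) and Aldh1a2, the retinoic acid synthesis enzyme, by 3.07 (SE 0.13, edgeR adjusted p = 1.4e-08). Krt19 and Podxl fell there, with log2 changes of −4.90 (SE 0.18) and −3.46 (SE 0.21) at edgeR adjusted p of 7.1e-09 and 2e-07. Under the same limit of 10 CPM, Prg4, Podxl, Aldh1a2 and Pdpn led in CDC-EpiC vs pEpiC, with log2 changes of 6.02, 7.93, −3.32 and −10.52, each past the threshold. Podxl and Prg4 thus ran in the order of kinds seen for the uroplakins, and Pdpn, like Muc16, was highest in pEpiC. Pdpn never exceeded 8 counts in any library of CDC or CDC-EpiC, while each pEpiC library held 6521 or more. Its changes of 9.90 and −10.52 therefore rest on a kind close to the floor, and their sizes are rough.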

How the data were processed

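Polyadenylated RNA was sequenced in 3 libraries each of CDC, CDC-EpiC and pEpiC. Per the labels, the authors' notes name HISAT2 2.0.4, Bowtie2 2.2.5, RSEM 1.2.12, DESeq2 1.4.5 and mm10, with no role or order. The authors deposited expected counts (estimated, 30.3% not whole), FPKM and TPM for 18245 genes. The 9 columns of means that they deposited equalled the library means and were not used. Libraries of a kind differed by more than read sampling (chi-square per degree of freedom 4.72 to 21.8) and were taken as replicates.

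Expected counts were rounded and tested in edgeR 4.0.16 (R 4.3.3) for each pair of kinds, with filterByExpr (minimum count 10, total 15), TMM and the quasi-likelihood fit (glmQLFit, glmQLFTest). The Benjamini-Hochberg adjustment ran over all genes tested, with a threshold of 0.05. Each SE given with an edgeR change is the log2 change divided by the square root of the F statistic of its test. It is approximate, and can be too small where a kind has few counts. Alternatives used DESeq2 1.42.0, limma 3.58.1 on log2 TPM or FPKM, other normalizations, filters and fits, a length offset, and the loss of each library, or of CDC libraries 1 and 2 together. The script was tested on simulated data. Figures were drawn with matplotlib 3.10.9 under Python 3.11.15 (NumPy 2.4.6, pandas 2.3.3). Starts came from RefSeq and gene positions from GENCODE M21.

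The genes and lists were chosen with earlier results of these data known. Beside the 7 genes, relatives with at least 10 CPM in 1 kind were named, with the 2 largest rises and 2 largest falls of the other mesothelial genes past the threshold per comparison (at least 10 CPM in the higher kind), and the 3 nearest profiles of each gene. A gene that this rule names is not reported here. A few others, such as Upk1a, were named after their values were seen.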

Additional observations from a re-analysis of the deposited data

How the results depend on the processing

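Of 375 values of the 7 genes under the alternatives, 370 kept their direction and their side of the threshold, 0 reversed, 1 was no longer past it (Nkain4 in pEpiC vs CDC with a length offset, −0.0356) and 4 were newly past it (Muc16 in CDC-EpiC vs CDC). Muc16 was below the filter in the main fit of that comparison, and was tested only where the filter was looser or other libraries set it. Why Nkain4 depends on length was not tested. A test against a 1.5-fold change called 3664 genes in CDC-EpiC vs CDC, 5549 in pEpiC vs CDC and 6578 in CDC-EpiC vs pEpiC, with every call of the 7 genes kept. With limma on log2(TPM + 1), 74.5% of calls in pEpiC vs CDC were higher against 50.8% in edgeR, and 32.9% against 49.3% in CDC-EpiC vs pEpiC, with the median of all genes at 0.414 and −0.327. Requiring 10 counts in every library removed Muc16. Leaving out 1 library left 8248 to 9046, 10073 to 10838 and 10760 to 11076 genes called in the 3 comparisons and lost no call of the 7 genes. The fitted change of Muc16 in pEpiC vs CDC then ran from 7.44 to 9.81, since CDC lay at the floor, and without CDC library 3 all CDC counts were 0. Deviations of libraries with the same number correlated little between kinds (−0.0843 to 0.144). Whether such libraries shared an animal, a culture day or a batch cannot be read from this. A replicate block gave 8831, 10604 and 11096 calls and changed no call of the 7 genes. With CDC library 3 alone for CDC, an alternative chosen after seeing the data, 7928 and 9668 genes were called in CDC-EpiC vs CDC and pEpiC vs CDC. Depth limits Muc16 above all, with at most 13 counts in a library of CDC or CDC-EpiC.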
